A study of Mus musculus with 12 samples.

Results

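The 10 genes described here encode receptor chains of the interleukin-6 family of cytokines and the signalling proteins beneath them. They were picked by name, with earlier results of these data known. They are the receptor chains Il6ra, Il6st, Lifr, Osmr and Cntfr, the kinases Jak1 and Jak2, the transcription factor Stat3, and the feedback inhibitors Socs2 and Socs3. All 10 were found among the 14317 genes of the table. The mRNA is described as coming from cortex of the occluded side, taken from the ischemic penumbra. The penumbra is the rim of tissue around an infarct that is still perfused in part. A Sham group of 6 mice was compared with a tMCAO/R group of 6 mice, which had 60 min of occlusion of the middle cerebral artery and then 24 h of reperfusion. Each mouse gave 1 library. All 12 mice are described as male C57BL/6J or C57BL/6 animals of 8 weeks and what was done to the Sham mice at surgery is not given in the sources used here.

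Cytokines such as interleukin-6, leukemia inhibitory factor (LIF), oncostatin M and ciliary neurotrophic factor share a signalling chain, gp130, which is the product of Il6st. A ligand-specific chain brings gp130 into a complex, the JAK kinases bound to the tails of the receptors then phosphorylate STAT3, and STAT3 enters the nucleus and switches on its targets. Socs3 is among these targets, and its protein binds gp130 and the JAK kinases and shuts the signal off. In the brain this pathway is known for its part in the reactive state of astrocytes and in the survival of injured neurons.

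Sham libraries held 13496273 to 15808212 fragments each, and tMCAO/R libraries held 13057288 to 14988265. The library of tMCAO/R mouse 4 stood apart, since its median Spearman correlation to its own group was 0.934, where the remaining tMCAO/R libraries had 0.971 to 0.980 and Sham libraries 0.981 to 0.989. Mitochondrial transcripts made up 8.70% of it, a share above those of Sham (5.29% to 8.52%) and of the remaining tMCAO/R libraries (2.85% to 4.66%). Ddx3y, Eif2s3y, Kdm5d and Uty, which lie on chromosome Y, were listed at 0 in all 6 Sham libraries and were read in all 6 tMCAO/R libraries (Ddx3y at 5.49 to 12.1 FPKM). Sex and surgery therefore cannot be told apart in any comparison between the groups. Markers of brain regions also differed between the groups. A difference in the dissected tissue cannot be told apart from an effect of surgery here. The summed FPKM of 9 genes of hippocampal neurons was 233.7 to 336.6 for Sham and 47.9 to 68.1 for tMCAO/R, and that of 9 genes of striatal neurons was 25.4 to 35.2 for Sham and 55.2 to 519.5 for tMCAO/R. The neuronal markers Snap25 (303 FPKM in Sham and 335 in tMCAO/R mice on average) and Slc17a7 (127 and 130 FPKM), a marker of glutamatergic neurons, were read in both groups. Of 10 neuronal markers 4 rose and 1 fell, among them Gad2, which makes the transmitter of inhibitory neurons (11.2 and 36.9 FPKM, log2FC 1.63, adjusted p = 2.39e-05, limma), and Nefl, a neurofilament (145 and 96.6 FPKM, log2FC -0.61, adjusted p = 0.00272, limma). In bulk tissue, fewer cells of a type and less RNA per cell cannot be told apart.

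To ask whether occlusion and reperfusion were accompanied by a change of these genes, limma was run on log2(FPKM + 1), a scale that understates the change of genes with low FPKM. FPKM are fragments scaled by a length of the gene and the size of the library. The lengths used are not given in the sources, so comparisons between different genes depend on them. Here abundant refers to FPKM. The test covered the 11743 genes that reached 0.5 FPKM in 6 or more libraries, and p-values were adjusted over all of them by the Benjamini-Hochberg method. The words rose and fell stand for an adjusted p below 0.01. Of the 10 genes, 9 passed the minimum and 6 of them rose, namely Il6ra, Il6st, Jak1, Jak2, Stat3 and Socs3. None of the 9 fell, and Lifr, Cntfr and Socs2 did not pass the test. Among all tested genes, 17.8% rose and 17.8% fell. The median log2FC of the 9 genes was 0.60, beside -0.01 for all tested genes. Osmr lay below the minimum and is described with a second test, limma-voom on whole fragments recovered from the FPKM, in which 10 of 10 genes were tested, 7 were called higher and none lower, and 16.3% of all 13894 genes were called higher and 16.5% lower. In 7 of the 10 genes every tMCAO/R mouse lay above every Sham mouse, against 12.3% of all genes in the table. Since the 10 genes were chosen with earlier results of these data known, the shares set beside theirs are a description only.

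**Figure D1:**
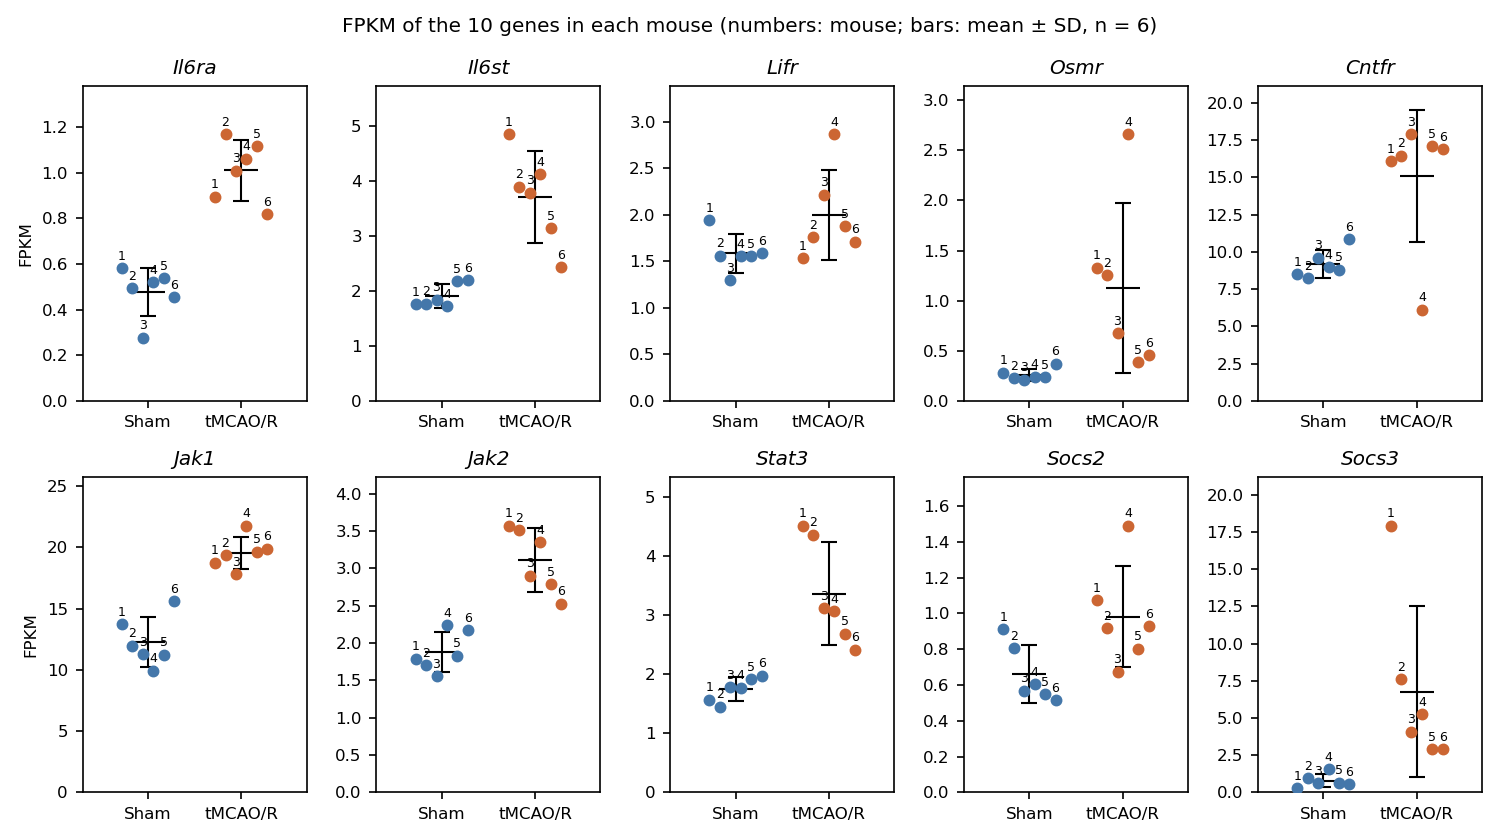
FPKM of each gene (y axis, linear, from 0) in the 6 Sham and 6 tMCAO/R mice, with the number of the mouse beside each point and bars for the mean ± SD. The groups do not overlap for Il6ra, Il6st, Osmr, Jak1, Jak2, Stat3 and Socs3. The lowest point of Cntfr in tMCAO/R mice is mouse 4 (6.12 FPKM) and the highest point of Socs3 is mouse 1 (17.9 FPKM).

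By FPKM, the levels of the 10 genes spanned a wide range. In Sham mice the mean level fell from Jak1 (12.3 FPKM) and Cntfr (9.16 FPKM) to Il6st (1.91), Jak2 (1.88), Stat3 (1.75) and Lifr (1.58 FPKM), and then to Socs3 (0.771), Socs2 (0.660), Il6ra (0.477) and Osmr (0.262 FPKM). Neighbours in this order had overlapping ranges over the 6 mice at every step but that from Cntfr to Il6st. In tMCAO/R mice Jak1 (19.5 FPKM) and Cntfr (15.1 FPKM) still had the highest means, Socs3 (6.78 FPKM) came after them, and the order went on with Il6st (3.71), Stat3 (3.36), Jak2 (3.11), Lifr (1.99), Osmr (1.13), Il6ra (1.01) and Socs2 (0.982 FPKM). Here the ranges of all neighbours overlapped. Both orders depend on the gene lengths behind the FPKM, which are not given in the sources used here. In tMCAO/R mice Socs3 had 125 to 875 fragments per library, on a canonical transcript of 2663 bases. Il6st had 970 to 2050 fragments, on a canonical transcript of 8678 bases. The coefficient of variation between Sham mice was 10.3% to 24.5% for 9 of the genes and 56.5% for Socs3. Between tMCAO/R mice it was lowest for Jak1 (6.81%) and highest for Osmr (75.4%) and Socs3 (84.7%).

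Il6st (ENSMUSG00000021756, chromosome 13, 112600604 to 112646620 of the mouse genome GRCm39, plus strand), which encodes the shared chain gp130, ranged from 1.72 over a median of 1.80 to 2.19 FPKM in Sham mice. It ranged from 2.44 over a median of 3.84 to 4.85 FPKM in tMCAO/R mice. Every tMCAO/R mouse was higher than every Sham mouse, with mouse 1 at the top and mouse 6 nearest to the Sham range. The mean was 1.91 ± 0.219 FPKM for Sham and 3.71 ± 0.832 FPKM for tMCAO/R (± SD of 6 mice), a ratio of 1.94, and Il6st rose (log2FC 0.68 ± 0.11 standard error, adjusted p = 0.000255, limma).

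Il6ra (ENSMUSG00000027947, chromosome 3, 89771366 to 89820719, minus strand) encodes the chain that binds interleukin-6 and presents it to gp130. Its levels were low, from 0.278 over a median of 0.506 to 0.581 FPKM in Sham mice and from 0.818 over a median of 1.03 to 1.17 FPKM in tMCAO/R mice. These correspond to 48 to 110 fragments and 137 to 206 fragments per library. The groups did not overlap, and the 6 tMCAO/R mice lay closer together than for the other receptor chains, with a coefficient of variation of 13.2%. The mean level was 2.12 times the Sham mean (0.477 ± 0.106 against 1.01 ± 0.134 FPKM), and Il6ra rose by both tests, with a log2FC of 0.45 ± 0.07 (standard error) on the log2(FPKM + 1) scale (adjusted p = 0.000121, limma) and of 1.10 on the fragment scale (standard error 0.18, adjusted p = 0.000201, limma-voom).

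Lifr and Osmr lie near each other on chromosome 15 and encode alternative partners of gp130. LIFR takes part in the responses to LIF and ciliary neurotrophic factor, and OSMR in the response to oncostatin M, which in the mouse signals mainly through OSMR. Lifr (ENSMUSG00000054263, chromosome 15, 7120095 to 7226970, plus strand) ranged from 1.30 over a median of 1.56 to 1.94 FPKM in Sham mice and from 1.54 over a median of 1.82 to 2.87 FPKM in tMCAO/R mice. Only mice 3 and 4 of the tMCAO/R group exceeded the highest Sham mouse. The difference did not pass the test (log2FC 0.20, 95% confidence interval -0.01 to 0.42, adjusted p = 0.109, limma).

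Osmr (ENSMUSG00000022146, chromosome 15, 6843053 to 6904450, minus strand) had the lowest mean FPKM of the 10 genes in Sham mice. It ranged there from 0.211 to 0.372 FPKM with a median of 0.240 (58 to 96 fragments per library). In tMCAO/R mice 1 to 6 it read 1.33, 1.26, 0.674, 2.66, 0.388 and 0.459 FPKM. Every tMCAO/R mouse was above the highest Sham mouse, but mouse 5 was so by a narrow margin, and mouse 4 was 6.87 times as high as mouse 5. The mean level was 4.30 times that of Sham mice. Because it reached 0.5 FPKM in only 4 libraries, it was not tested by the main fit. On whole fragments it was called higher with a log2FC of 1.80 (95% confidence interval 0.83 to 2.77, adjusted p = 0.00449, limma-voom). Without tMCAO/R mouse 4 its log2FC was 1.51 (adjusted p = 0.00166, limma-voom), in a fit that called 21.0% of all genes higher. With no minimum on the log2(FPKM + 1) scale it was called at 0.67 (adjusted p = 0.00948, limma), where 15.5% of all genes were called higher.

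The balance between these alternative partners was taken within each mouse as the log2 ratio of Osmr to Lifr, with 0.1 FPKM added to both. It was 1 of 4 such ratios compared. In Sham mice the ratio was -2.22 ± 0.206, and in tMCAO/R mice -1.01 ± 0.850 (SD, n = 6 each). The difference of 1.22 passed an exact two-sided permutation test (p = 0.00433, adjusted over the 4 ratios p = 0.00866), with 5 of 6 tMCAO/R mice above the highest Sham mouse. With 0.5 FPKM added in place of 0.1 the difference was 0.71 (adjusted p = 0.0216, exact permutation test). The tMCAO/R mice were uneven, from -0.10 in mouse 4, -0.19 in mouse 1 and -0.46 in mouse 2 down to -2.02 in mouse 5, which lay within the Sham range. In contrast, the ratio of Il6ra to Il6st was -1.82 ± 0.342 in Sham and -1.76 ± 0.328 in tMCAO/R mice (difference 0.06, adjusted p = 0.898, exact permutation test). Both means were close to 2 times those of Sham mice (2.12 and 1.94), and no change of their balance was detectable with 6 mice a group.

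Cntfr (ENSMUSG00000028444, chromosome 4, 41657498 to 41697089, minus strand) encodes the chain that binds ciliary neurotrophic factor. It is held in the membrane by a lipid anchor and signals through gp130 and LIFR. In Sham mice it ranged from 8.25 over a median of 8.89 to 10.8 FPKM. In tMCAO/R mice 1 to 6 it read 16.1, 16.5, 17.9, 6.12, 17.1 and 16.9 FPKM. Thus 5 of the 6 tMCAO/R mice lay close together and above all Sham mice, whereas mouse 4 lay below all Sham mice. With all 12 libraries Cntfr did not pass the test (log2FC 0.60, 95% confidence interval 0.17 to 1.03, adjusted p = 0.0217, limma). Without tMCAO/R mouse 4, the library that stood apart across all genes, its log2FC was 0.82 ± 0.07 (standard error) and it rose (adjusted p = 1.48e-06, limma), as did 21.9% of all genes tested in that fit. No other omission of a single library brought it past the threshold.

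Jak1 (ENSMUSG00000028530, chromosome 4, 101008838 to 101122487, minus strand) had the highest mean FPKM of the 10 genes in both groups. Its kinase is the principal one for signalling through gp130. It ranged from 9.94 over a median of 11.6 to 15.6 FPKM in Sham mice and from 17.8 over a median of 19.5 to 21.8 FPKM in tMCAO/R mice. The groups did not overlap, and the tMCAO/R mice differed little among themselves. Jak1 rose, with a mean of 12.3 ± 2.04 FPKM in Sham and 19.5 ± 1.33 FPKM in tMCAO/R mice, a ratio of 1.59 (log2FC 0.64 ± 0.10 standard error, adjusted p = 0.000188, limma). Jak1 shares 1950 of its 10826 exon bases with Raver2 on the opposite strand, and since the strand setting of the counting is not given in the sources used here, reads of the shared part cannot be told apart. Il6ra, Il6st, Lifr, Jak2, Stat3, Socs2 and Socs3 share 160 to 1530 exon bases with noncoding genes on the opposite strand, and Osmr and Cntfr share none.

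Jak2 (ENSMUSG00000024789, chromosome 19, 29228677 to 29290505, plus strand), whose kinase also serves the receptors of growth hormone and erythropoietin, was several times lower than Jak1. It ranged from 1.55 over a median of 1.81 to 2.24 FPKM in Sham mice and from 2.53 over a median of 3.13 to 3.57 FPKM in tMCAO/R mice, again without overlap. Jak2 rose to 1.65 times the Sham mean (log2FC 0.51 ± 0.09 standard error, adjusted p = 0.000395, limma). The log2 ratio of Jak2 to Jak1 within a mouse was -2.64 ± 0.285 in Sham and -2.62 ± 0.213 in tMCAO/R mice. The difference of 0.02 did not pass the exact permutation test (adjusted p = 0.898), and no tMCAO/R mouse lay above the highest Sham mouse.

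Stat3 (ENSMUSG00000004040, chromosome 11, 100775924 to 100830450, minus strand), the transcription factor at the end of the cascade, ranged from 1.45 over a median of 1.78 to 1.98 FPKM in Sham mice. In tMCAO/R mice it ranged from 2.42 over a median of 3.10 to 4.52 FPKM. All tMCAO/R mice were above all Sham mice, with mice 1 and 2 (4.52 and 4.37 FPKM) well above the other four. Stat3 rose, with a mean of 1.75 ± 0.201 FPKM in Sham and 3.36 ± 0.875 FPKM in tMCAO/R mice, a ratio of 1.93 (log2FC 0.65 ± 0.12 standard error, adjusted p = 0.000464, limma). Its exons share 142 of 10096 bases with those of Stat5a on the opposite strand. These are mRNA levels, and the phosphorylation through which STAT3 acts was not measured in these libraries.

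Socs3 (ENSMUSG00000053113, chromosome 11, 117856905 to 117860898, minus strand) had the largest fold difference of the 10 genes. In Sham mice 1 to 6 it read 0.308, 0.950, 0.632, 1.55, 0.646 and 0.538 FPKM, or 16 to 69 fragments per library. In tMCAO/R mice 1 to 6 it read 17.9, 7.61, 4.08, 5.26, 2.89 and 2.89 FPKM, or 125 to 875 fragments. The lowest tMCAO/R mice were still above the highest Sham mouse, and mouse 1 was far above the next, mouse 2. The mean level was 8.79 times the Sham mean (0.771 ± 0.436 against 6.78 ± 5.74 FPKM). Socs3 rose by 1.92 ± 0.32 (log2FC and standard error, adjusted p = 0.000227, limma). This is short of the |log2FC| of 2 that also defines a differentially expressed gene (DEG) here, which 0.247% of tested genes passed upward. On whole fragments its log2FC was 3.00 (standard error 0.59, adjusted p = 0.00075, limma-voom), past that limit together with 1.54% of the genes tested in that way. Without mouse 1 the log2FC on the log2(FPKM + 1) scale stayed called, as it did without any other single library (1.61 to 2.07 over the 12 omissions).

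Socs2 (ENSMUSG00000020027, chromosome 10, 95219523 to 95253929, minus strand) encodes a related inhibitor that is best known for restraining growth hormone signalling. It ranged from 0.516 over a median of 0.586 to 0.914 FPKM in Sham mice and from 0.675 over a median of 0.923 to 1.49 FPKM in tMCAO/R mice. The ranges overlapped, and 4 of 6 tMCAO/R mice were above the highest Sham mouse. It did not pass the test (log2FC 0.25, 95% confidence interval 0.05 to 0.45, adjusted p = 0.0386, limma). The log2 ratio of Socs3 to Socs2 within a mouse was 0.09 ± 0.813 in Sham and 2.39 ± 0.922 in tMCAO/R mice. The difference of 2.30 gave p = 0.00216 in the exact two-sided permutation test, the smallest that 6 against 6 mice allow (adjusted over the 4 ratios p = 0.00866), and all 6 tMCAO/R mice lay above the highest Sham mouse.

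**Figure D2:**
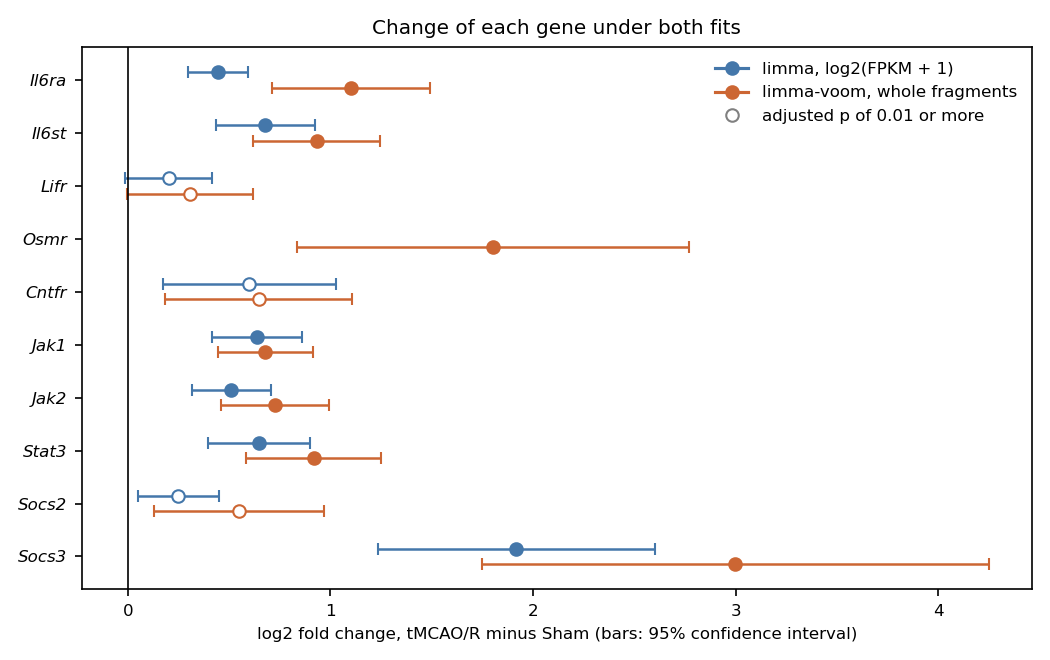
Log2 fold change of each gene, tMCAO/R minus Sham (x axis, log2 scale), from limma on log2(FPKM + 1) and from limma-voom on whole fragments, with 95% confidence intervals. Open circles mark an adjusted p of 0.01 or more, as for Lifr (0.20), Cntfr (0.60) and Socs2 (0.25), and Osmr has a value from limma-voom only (1.80).

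**Figure D3:**
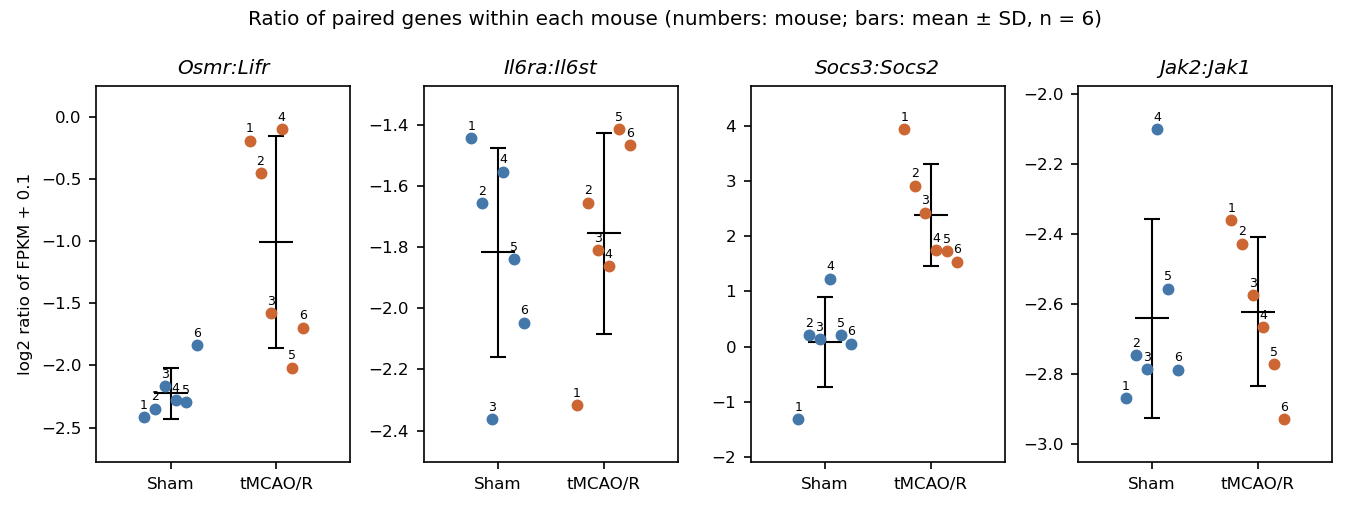
Log2 ratio of 2 genes within each mouse (y axis, with 0.1 FPKM added to both genes), with the number of the mouse beside each point and bars for the mean ± SD of 6 mice. The ratio of Socs3 to Socs2 separates the groups fully, that of Osmr to Lifr does so but for mouse 5, and those of Il6ra to Il6st and of Jak2 to Jak1 overlap.

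The 6 tMCAO/R mice did not show the pattern to the same degree. Mouse 1 had the highest level of Il6st, Jak2, Stat3 and Socs3, at 2.54, 1.90, 2.59 and 23.2 times the Sham mean. Mouse 4 had the highest level of Lifr, Osmr, Jak1 and Socs2, at 1.81, 10.2, 1.77 and 2.26 times the Sham mean, and the lowest of Cntfr, at 0.669 times. Mouse 6 had the lowest level of Il6ra, Il6st, Jak2 and Stat3, at 1.71, 1.28, 1.34 and 1.39 times the Sham mean. Jak1 was the most even of the genes, at 1.45 to 1.77 times the Sham mean in each of the 6 mice.

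Markers of brain regions and cell types also differed between the tMCAO/R mice. The summed FPKM of the 9 striatal genes in tMCAO/R mice 1 to 6 was 519.5, 289.5, 55.2, 78.0, 174.0 and 286.5, with the highest value in mouse 1. The summed FPKM of 11 genes of reactive astrocytes was 149.6, 211.2, 78.4, 151.9, 65.1 and 33.6, with the highest value in mouse 2 and the lowest in mouse 6. The part of either in the levels of the 10 genes was not tested. Of these 11 genes 6 were tested, none rose and 1 fell. Gfap, the intermediate filament of astrocytes, fell from 97.4 ± 9.12 to 39.0 ± 22.9 FPKM at a log2FC of -1.49 (adjusted p = 0.000821, limma), and Vim (7.83 and 9.69 FPKM) and Serpina3n (29.5 and 27.6 FPKM) did not pass the test. Others of the list had higher means in tMCAO/R mice. Limma-voom called Cp higher (0.277 and 0.526 FPKM, adjusted p = 0.00887) and did not call Steap4 (0.152 and 1.33 FPKM, adjusted p = 0.0150), Emp1 (0.128 and 0.612 FPKM, adjusted p = 0.0108) or Hspb1 (5.45 and 32.3 FPKM, adjusted p = 0.0495), whereas limma with no minimum called Steap4 (adjusted p = 0.00599) and Emp1 (adjusted p = 0.0049) higher. Of 10 microglial markers 1 rose and 4 fell, and their summed level was 174.5 to 229.7 FPKM in Sham and 64.5 to 212.8 FPKM in tMCAO/R mice. Of 10 endothelial markers 3 rose and 4 fell, with sums of 74.2 to 96.0 and 39.4 to 87.0 FPKM. None of these lists had a gene at 0 in a whole group.

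**Figure D4:**
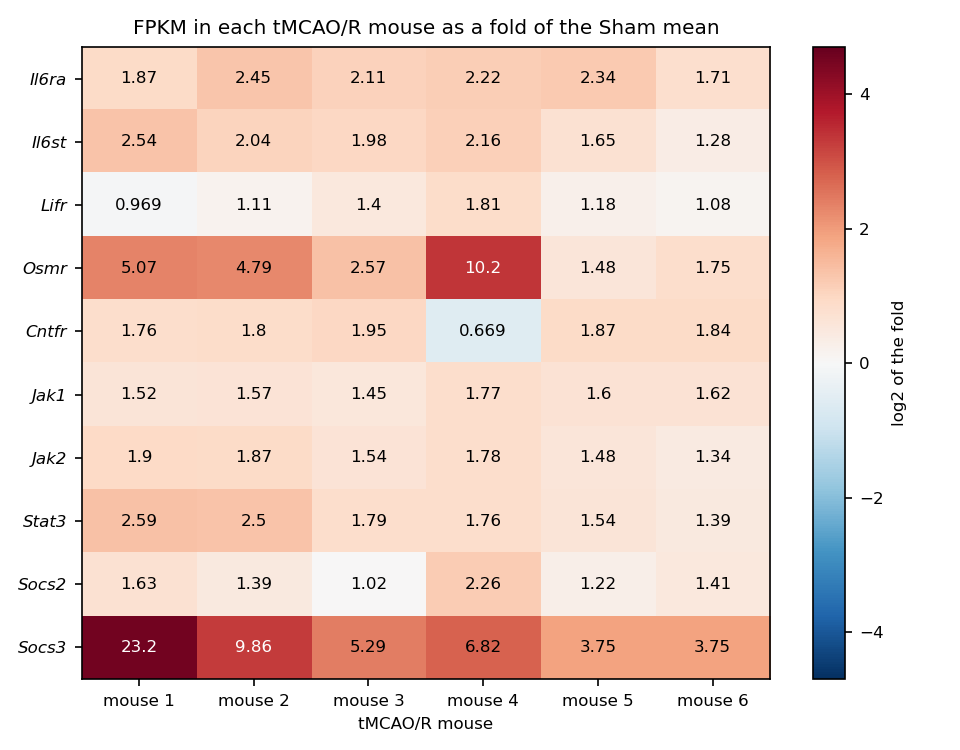
Level of each gene (rows) in each tMCAO/R mouse (columns) as a fold of the Sham mean, with the colour on a log2 scale and the fold printed in each cell. Socs3 in mouse 1 (23.2) and Osmr in mouse 4 (10.2) are the highest folds, and Cntfr in mouse 4 (0.669) is the lowest.

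STAT proteins bind DNA as dimers at palindromes of the form TTCNNNGAA, which reads the same on both strands. The letters were searched from 250 bases before to 100 bases after the annotated start of the canonical transcript (GRCm39, GENCODE M39). The end of this window was chosen after the Socs3 sequence had been seen. Socs3 held 2 such palindromes, the upstream copy 223 bases before the start and the other at base 51 of the transcript, and Jak2 held 1, at 138 bases before the start. The other 8 genes had none in this window. Among the windows of 21770 protein-coding genes 9.97% held at least 1 palindrome and 0.588% held 2 or more, and among the windows of the tested genes 7.88% held at least 1. These shares were counted in the same window, whose end was chosen with the Socs3 sequence seen, so beside Socs3 they are a description only. A match of letters is a description of the sequence and was not tested for binding. The sites of both genes are given to show the letters matched, with the palindrome in capitals and 10 flanking bases on each side.
Socs3, chr11:117860328-117860356, minus strand: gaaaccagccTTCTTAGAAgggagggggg
Socs3, chr11:117860055-117860083, minus strand: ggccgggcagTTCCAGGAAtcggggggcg
Jak2, chr19:29228529-29228557, plus strand: aagcggtcccTTCGCAGAAgtggtggtta

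For the members that rose with a log2FC of at least 0.5, the genes with the nearest profile were sought among all tested genes with a mean of at least 5 FPKM. Nearness was the mean absolute difference over the 12 libraries of log2(FPKM + 1), after the Sham mean of each gene was taken off. Rcan1, which encodes an inhibitor of calcineurin, was nearest to both Il6st (0.11) and Stat3 (0.11), followed by Top1 and Tsc22d1 for Il6st and by Rragd and Aars for Stat3. Crkl (0.06), Mapre2 and Nrcam were nearest to Jak1, and Gclc (0.06), Paip2b and Itgb1 to Jak2. The nearest genes to Socs3 were farther away by this measure. They were Cdh5 (0.38), the cadherin of endothelial junctions, which went from 2.33 to 9.90 FPKM, Cd14 (0.38), a coreceptor for bacterial lipopolysaccharide, which went from 1.66 to 13.9 FPKM, and Ccn1 (0.39).

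Of 9 ligands listed, 3 were in the table used here, namely Lif, Ctf1 and Clcf1, and their mRNAs were scarce. Il6, Il11, Osm, Cntf, Il27 and Ebi3 were not analysed here. Lif averaged 0.135 FPKM in Sham and 0.0437 FPKM in tMCAO/R mice, Clcf1 0.125 and 0.0448 FPKM, and Ctf1, which encodes cardiotrophin, 0.515 and 0.324 FPKM. These levels, of 0 to 41 fragments per library, lay below the minimum for testing, and limma-voom called neither Ctf1 (adjusted p = 0.125) nor Clcf1 (adjusted p = 0.0491).

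Among 7 further receptors of the family, 6 were in the table and 2 were tested. Csf3r, the receptor of granulocyte colony-stimulating factor, fell from a mean of 1.10 FPKM to 0.525 FPKM (adjusted p = 0.000419 at a log2FC of -0.46, limma), and Il11ra1, the most abundant, read 2.94 and 1.95 FPKM (adjusted p = 0.0392, limma). Limma-voom also called Il27ra lower (0.247 and 0.0168 FPKM) and Il12rb1 higher (0.0659 and 0.350 FPKM), both at few fragments per library. Csf3r is also one of the neutrophil and monocyte markers, of which 2 of 5 tested fell. The part of these cells in the level of Csf3r was not tested.

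Of the other JAK and STAT genes 4 were tested. Stat5b, which mediates growth hormone and prolactin signals, rose, with a mean of 1.60 ± 0.192 FPKM for Sham and 3.74 ± 0.448 FPKM for tMCAO/R (log2FC 0.87 ± 0.08 standard error, adjusted p = 2.27e-06, limma), beside a log2FC of 0.65 for Stat3. Tyk2, the kinase that joins JAK1 at several of these receptors, fell from 1.00 ± 0.135 FPKM to 0.441 ± 0.120 FPKM at a log2FC of -0.47 (adjusted p = 0.000102, limma). Stat6 (1.31 and 1.68 FPKM) did not pass the test. Jak1, Jak2, Stat3 and Stat5b were thus higher and Tyk2 lower in the same libraries.

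Of the inhibitors other than Socs2 and Socs3, 2 of 11 tested rose and none fell, beside 17.8% of all tested genes in each direction. Of 4 tested SOCS genes, Socs7 rose from 5.44 to 10.3 FPKM (log2FC 0.82, adjusted p = 0.00017, limma), and Socs5, the most abundant of them, read 14.9 and 16.9 FPKM (adjusted p = 0.274, limma). Of 7 tested genes for PIAS proteins, which restrain STATs in the nucleus, and for phosphatases, Pias2 rose (3.92 and 7.08 FPKM, log2FC 0.69, adjusted p = 0.00101, limma). Ptpn11, which encodes the phosphatase SHP2 recruited by gp130, read 12.5 and 11.8 FPKM and did not pass the test (adjusted p = 0.671, limma). Ptpn6 was called lower by limma-voom (0.499 and 0.219 FPKM).

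Of 18 genes known to be induced by STAT3, 13 were tested, 3 rose and none fell, beside 17.8% of all tested genes in each direction. Their median log2FC was 0.24, beside -0.01 for all tested genes. Lcn2, a secreted lipocalin, read 0.0250 to 1.61 FPKM in Sham mice (median 0.0906) and 2.01 to 8.50 FPKM in tMCAO/R mice (median 6.88), without overlap (log2FC 2.37, adjusted p = 1.41e-05, limma). Il4ra, a receptor of interleukin-4, rose from 0.483 to 1.91 FPKM (log2FC 0.92, adjusted p = 0.000504, limma), and Mcl1, which protects cells from apoptosis, from 14.5 to 21.6 FPKM (log2FC 0.53, adjusted p = 0.00307, limma). Junb, the most abundant of the list, read 44.6 and 26.0 FPKM and did not pass the test (adjusted p = 0.0417, limma). Bcl3 (0.158 and 0.492 FPKM) was called higher by limma-voom (adjusted p = 0.00924). In the arm of growth hormone and prolactin, to which Socs2 belongs, Igf1 (0.436 and 0.810 FPKM, log2FC 0.32, adjusted p = 0.00449, limma) and Igfbp3 (3.55 and 6.04 FPKM, log2FC 0.61, adjusted p = 0.00728, limma) rose, whereas Igf1r (2.39 and 3.11 FPKM) did not pass the test and Prlr (0.142 and 0.0276 FPKM) was called lower by limma-voom. Without a single library, Sham mouse 3 or tMCAO/R mouse 3 among others, Igf1 lost its call (adjusted p of 0.0125 and 0.0108, limma), and so did Igfbp3 (0.0195 and 0.0162). Prlr is also one of the choroid plexus markers. Their summed FPKM was 43.4 to 1902 in Sham (median 90.6) and 11.1 to 16.1 in tMCAO/R mice (median 13.7). The part of choroid plexus tissue in the level of Prlr was not tested.

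**Figure D5:**
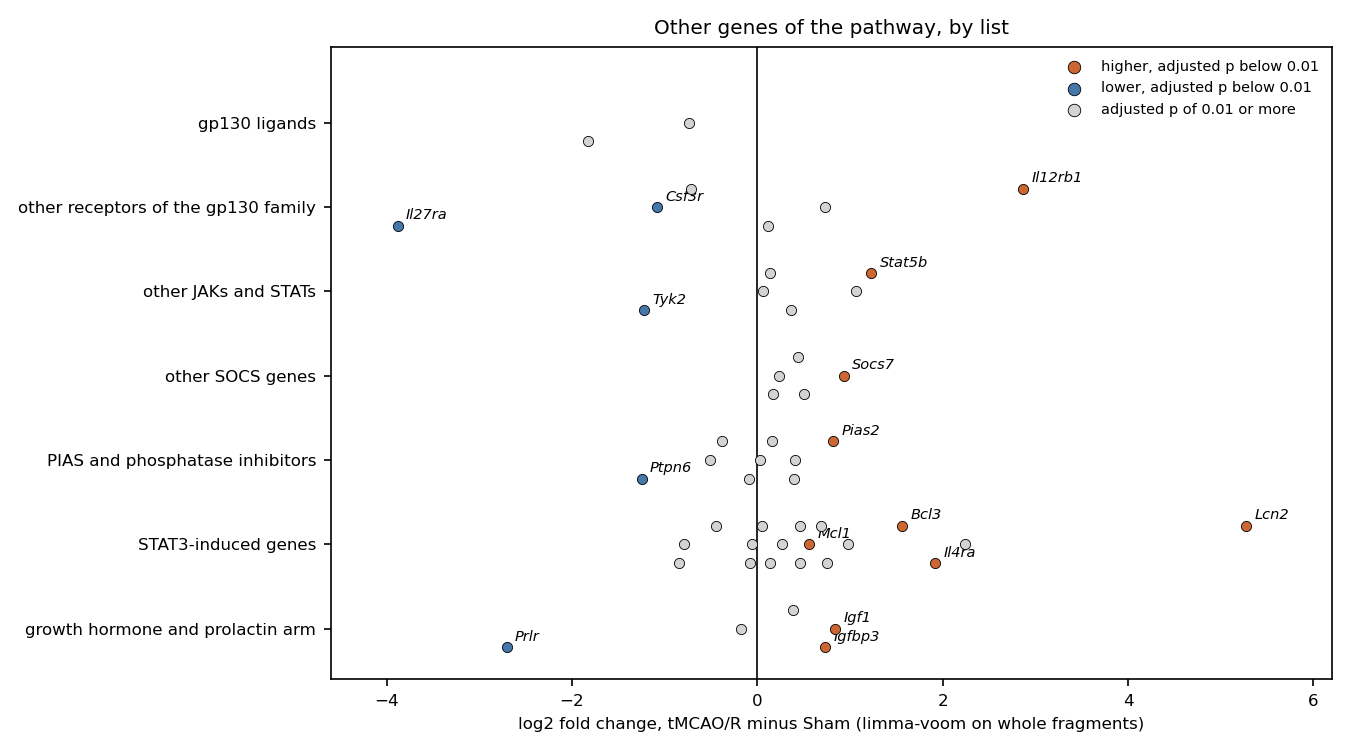
Log2 fold change, tMCAO/R minus Sham (x axis, limma-voom on whole fragments), of further genes of the pathway, in rows by list, with the genes past an adjusted p of 0.01 named. Il27ra lies far to the left, Lcn2 and Il12rb1 far to the right, and 14 of the 18 STAT3-induced genes are not named.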

How the data were processed

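Poly(A) RNA of 12 mouse libraries was sequenced in paired ends. Per the submitters' processing notes and the methods, the authors used fastp, HISAT2 2.2.1 on GRCm39, HTSeq 2.0.2 and DESeq2 1.24.0, and deposited FPKM, 1 column per library and not pooled. Which annotation release, strand setting and gene filter lay behind the table is not given in the sources used here.

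Whole fragments were recovered from the steps of the deposited FPKM for 14311 genes (tolerance 1e-05 fragments), which gave the library totals. The depth put 16 to 2925 fragments on each of the 10 genes per library. Groups were compared with limma 3.58.1 under R 4.3.3 (eBayes with a mean trend) on log2(FPKM + 1), for genes with at least 0.5 FPKM in 6 libraries. Alternatives were a pseudocount of 0.1 FPKM, no minimum, a minimum mean of 1 FPKM, quantile normalization, limma-voom on genes with at least 10 fragments in 6 libraries, the replicate number as a block, and each library left out in turn. Limma-voom without tMCAO/R mouse 4 was added after seeing the data. Both tests were run on simulated data with 200 changed genes. That simulation used the same setting of the spread between mice for every gene and held no library that stood apart. It therefore does not cover genes as uneven between mice as Osmr and Socs3. Ratios were compared by exact permutation (Python 3.11.15, scipy 1.17.1), with a threshold of 0.05. Nothing says whether libraries were prepared separately, so p-values measure the spread between these samples.

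The members, the lists and the rules were chosen with earlier results of these data known. Named beside the members are the ligands, the called genes and the most abundant gene not called of each further pathway list, the leading markers of cell types, and the 3 nearest profiles. Slc17a7, Gad2, Nefl, Vim, Cp, Steap4 and Emp1 were named outside these rules, after their values were seen. Cebpb, Timp1 and other uncalled genes are counted only, and some genes of the lists are not reported here. Marker lists of 13 cell types, regions and sex were examined.

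By marker list, 2 of 12 astrocyte markers rose and 2 fell, and 6 of 10 oligodendrocyte markers fell. Of 5 tested pericyte and smooth muscle markers 1 rose and 1 fell. Further, 8 of 9 hippocampal, 2 of 4 choroid plexus, 3 of 5 ependymal and 2 of 5 neutrophil and monocyte markers fell. In contrast, 9 of 9 striatal markers and 2 of 2 tested Y-linked genes rose. Among all tested genes, 17.8% rose and 17.8% fell.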

Additional observations from a re-analysis of the deposited data

Results flagged for a closer look

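Within the 28 groups of 6 mice examined for a single far value (10 members and the named ratios in each group), 2 values stood out by Dixon's test at the 95% level. Chance alone gives about 1 such value in 20 groups, so 2 values in 28 groups are near that rate. Cntfr in tMCAO/R mouse 4 was 6.12 FPKM against a group median of 16.7 FPKM, and its gap to the nearest mouse took up 0.847 of the range of the group. The same library stood apart across all genes. Socs3 in tMCAO/R mouse 1 was 17.9 FPKM against a group median of 4.67 FPKM, with a gap of 0.686 of the range. This mouse also had the highest level of Il6st, Jak2 and Stat3 in its group.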

How the results depend on the processing

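The calls of Il6ra, Il6st, Jak1, Jak2, Stat3 and Socs3 held under each alternative run for them, 18 for Il6ra and 19 for each of the others, with adjusted p of 0.00415 or less. Lifr (adjusted p 0.0611 to 0.213) and Socs2 (0.0185 to 0.0811) were called under none. Osmr, untested in the main comparison, was called with no minimum (log2FC 0.67, adjusted p = 0.00948, limma), with limma-voom (1.80) and with limma-voom without tMCAO/R mouse 4 (1.51). Cntfr was called only without that mouse, by limma (0.82; 0.54 to 0.82 over all omissions) and by limma-voom (0.89). The cause was not tested. The number of genes called, 4180, moved to between 3249 and 5662.

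No pairing of the mice by replicate number was detected. The deviations of equally numbered mice correlated at -0.12 to 0.22. In 0 of 6 numbers was the best partner the mouse with the same number. With the replicate block 3460 genes were called and no call among the 10 genes changed, while Igf1 (log2FC 0.32, adjusted p = 0.0168) and Igfbp3 (0.61, adjusted p = 0.0187) lost theirs. The differences of the ratios of Osmr to Lifr (1.22) and Socs3 to Socs2 (2.30) had an adjusted p of 0.0625 in the exact sign-flip test over block pairs, where each had the smallest unadjusted p that 6 pairs allow.

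The difference of Osmr to Lifr was 0.709 with 0.5 FPKM added (adjusted p = 0.0216, exact permutation test) and 1.498 with nothing added (adjusted p = 0.00866). Over the omissions of single libraries it was 1.03 to 1.42 and that of Socs3 to Socs2 1.99 to 2.53. The small differences of Il6ra to Il6st and Jak2 to Jak1 changed sign with 0.5 FPKM added (-0.152 and -0.0594) and among the omissions (-0.0466 to 0.175 and -0.0325 to 0.128), and were past the threshold nowhere. Ptpn11 (-0.08) changed sign without Sham mouse 4 (0.0165), without tMCAO/R mouse 4 (0.0194) and with limma-voom without the latter (0.0226), and was never called. Depth limits the genes with few fragments, such as Socs3 in Sham mice, Il6ra, Osmr, the ligands, Il27ra and Il12rb1.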
